A study of Homo sapiens with 7 samples.

Results

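The sites described here are the cleavage and polyadenylation sites (PASs) that the deposited tables class as lying in upstream exons, that is, in an exon that precedes the 3′-most exon of the RefSeq gene. They were taken by that class, at every read level and counted once by position. The batch 1 table held 652 of them among 51882 PASs on the sense strand of a gene, the table of the double knockdown (KD) held 566 of 44595, and the batch 2 table held 409 of 34849. Over the 3 tables they came to 1016 of the 76786 positions listed. The PASs of batch 1 belonged to 561 genes, of which 504 had 1 such site, and KDM5A had the most, with 9.

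HEK293, a human embryonic kidney line in long use, received a control siRNA (siCtrl) or siRNAs against nuclear poly(A) polymerases, and RNA 3′ ends were read by 3′READS, in which a read ends where the poly(A) tail was added. Batch 1 held 1 library each of siCtrl, siStar-PAP (targeting TUT1), siPAPα (targeting PAPOLA) and siPAPγ (targeting PAPOLG). The table of the double KD of PAPα and PAPγ set it against the same siCtrl library as batch 1, and the batch of that KD was not given. Batch 2, made with the modified protocol 3′READS+, held a siCtrl and a siStar-PAP library of its own. No condition had a second library within a table, so that a test between libraries there compares reads of 2 libraries and takes in no biological variation.

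Cleavage in an upstream exon ends the RNA before the remaining exons are joined. When the exon is coding and is spliced in the full-length mRNA, the shortened RNA can lack a stop codon, whereas an alternative terminal exon brings its own stop codon and 3′ UTR. Whether such a site is used depends on the poly(A) signal, best known as the AAUAAA hexamer recognised by the cleavage and polyadenylation specificity factor (CPSF), and on its race with splicing and with downstream PASs.

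Each library held between 2347192 and 16191098 sense reads, and intervals below are exact Clopper-Pearson intervals at the 95% level that cover counting error only. TUT1 fell from 83 reads in siCtrl to 2 in siStar-PAP of batch 1, and PAPOLA from 71 to 12 in siPAPα and from 78 to 8 in the double KD. PAPOLA was also lower in siStar-PAP of batch 1, with 44 reads, or 3.96 RPM (reads scaled to a fixed library total) against 8.81 in siCtrl. PAPOLG had 5 reads in siCtrl of batch 1, 28 in siStar-PAP, 36 in siPAPα and 15 in the library labelled siPAPγ. In the same order these were 0.621, 2.52, 2.22 and 1.73 RPM. The counts thus showed no fall of PAPOLG in the library labelled siPAPγ. With 5 reads in siCtrl they were too few to check that label, and the library is named by its label throughout. The paper reports the efficiency of each KD by immunoblot, that is, in protein. With 6 and 4 reads of TUT1 in batch 2, and 5 and 6 of PAPOLG in the double KD table, those targets were too shallow to check. All 8 marker genes of HEK293 had reads in siCtrl of batch 1, with 30260 at KRT18, 1732 at VIM, 419 at NEFL and 216 at SOX4. The others had few, with 35 at NEFM, 13 at KRT8, 8 at PAX2 and 3 at CD24. Of 6 blood and liver genes 5 were not listed while APOA1 had 44 reads, more than those low markers.

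The 30 bases before each of the following PASs are shown because the results turn on them (GRCh37, which is hg19, on the strand of the gene, 5′ to 3′, with the hexamer in capitals where a signal of the AATAAA family was found). The first 3 were among the most-read sites, and each sat at the annotated end of a transcript. They were taken from COL18A1 (chr21:46933604-46933633, plus strand), THOC2 (chrX:122734421-122734450, minus strand) and NOP56 (chr20:2639009-2639038, plus strand).
COL18A1: acaggcaAATAAAagtgaccttttacactg
THOC2: ttttttctaAATAAAcaatagttttctcaa
NOP56: cgtgttccccAATAAAaacaaattcacaag

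The next 4 were among the largest falls of share, in percentage points, of sites that passed the test and the 2-fold change described below in at least 1 KD. The WDR33 site (chr2:128520688-128520717, minus strand) lay in the 3′ UTR of a short transcript, 580 nt before its annotated end, and those of C12orf35 (chr12:32133962-32133991, plus strand), CENPI (chrX:100357366-100357395, plus strand) and NOL7 (chr6:13615974-13616003, plus strand) lay in coding sequence. That of C12orf35 was 2 nt from an annotated transcript end and in the last exon of 2 transcripts. NOL7 had no hexamer in the 40 nt searched.
WDR33: AATAAAtttgctacatgctctgatgacggc
C12orf35: caccagtctttAATAAAccaaattaccaca
CENPI: tattctATTAAAtattgcactcagtggcaa
NOL7: gcgacgcgaggagctgttcatcgaacagaa

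The last 5 were among the largest rises of share under the same rule, or lay in the same gene as a site that rose. PARG (chr10:51026329-51026358, minus strand), both REEP3 sites (chr10:65384307-65384336 and chr10:65381074-65381103, plus strand) and CABLES2 (chr20:60963922-60963951, minus strand) lay in annotated 3′ UTRs, and CYB5D2 (chr17:4046867-4046896, plus strand) in a 5′ UTR. CABLES2 had no hexamer, and in CYB5D2 the variant GATAAA directly preceded the site.
PARG: aaaatctaAATAAAattggactggtgggaa
REEP3 distal: atataaAATAAActcattttatttgtggca
REEP3 middle: atAATAAAgtaggttttatatattctttaa
CABLES2: ttattgcaacaaagccagtagttaaaccaa
CYB5D2: cttttcgccagtgccaggaatacaGATAAA

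Set against the GENCODE annotation, the class was mixed, and for its most-read sites the name did not hold. In batch 1, 279 of 652 sites (42.8%) were in coding sequence, 221 (33.9%) in a 3′ UTR, 88 (13.5%) in a 5′ UTR and 41 in a noncoding exon. The 3′ UTR sites took 74.9% of the siCtrl reads of the class and the coding sites 13.2%. In all, 210 sites (32.2%), with 74.6% of the reads, lay in the last exon of at least 1 annotated transcript, and 112 sites (17.2%), with 58.7% of the reads, lay within 24 nt of an annotated transcript end. Coding sequence outside any last exon held 238 sites (36.5%) and 11.8% of the reads. In 44 genes every listed sense PAS was of this class, and these genes supplied 55.4% of its siCtrl reads.

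Most of the sites were rarely used. In siCtrl of batch 1 the median was 3 reads per site, the third quartile 8.25 and the highest 1515, and 246 of 652 sites had 0 reads, which allows up to 3. Among the 288 sites whose genes had at least 50 siCtrl reads, the median share of the gene was 6.75%. The share was under 5% at 114 of them, from 5 to 20% at 100, from 20 to 50% at 38, and 50% or more at 36. Of the 652 sites of batch 1, 5 were under 5% of the gene in every library, against 112 of 566 in the double KD table and 74 of 409 in batch 2. A site that entered the batch 1 table through 1 library therefore had to be high in that library.

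Upstream exon PASs carried fewer poly(A) signals than other PASs. AATAAA was found in the 40 nt before 34.0% of them (30.4 to 37.8%, n = 652), against 47.1% of 13719 intronic and 46.3% of 37666 3′-most exon sites of batch 1. No hexamer, that is, neither AATAAA, nor its main variant ATTAAA, nor 1 of 10 others, was found at 35.4% (31.8 to 39.2%), against 16.6% and 17.8%. The others searched, on the strand of the gene only, had a changed first base (the hexamers TATAAA, then also CATAAA, and lastly GATAAA), a changed second base (the hexamers AGTAAA, and likewise ACTAAA), a changed base further on (the hexamers AATGAA, then also AATATA, further on AATACA, and lastly AATAGA) or were AAAAAG. The trimer ATA between 100 and 41 nt before the site was present at 44.5% (40.6 to 48.4%), against 60% of intronic and 59.5% of 3′-most exon sites. The median G+C content of the 100 bases before the site was 41%, against 35% and 34%. Sequence with at least 6 A in the 10 bases after the site, where priming inside an RNA could occur, was as rare as elsewhere, at 1.69% (0.845 to 3%) against 1.5% and 1.38%. Where AATAAA was present it ended a median of 17 bases before the site, as in 3′-most exons.

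**Figure D1:**
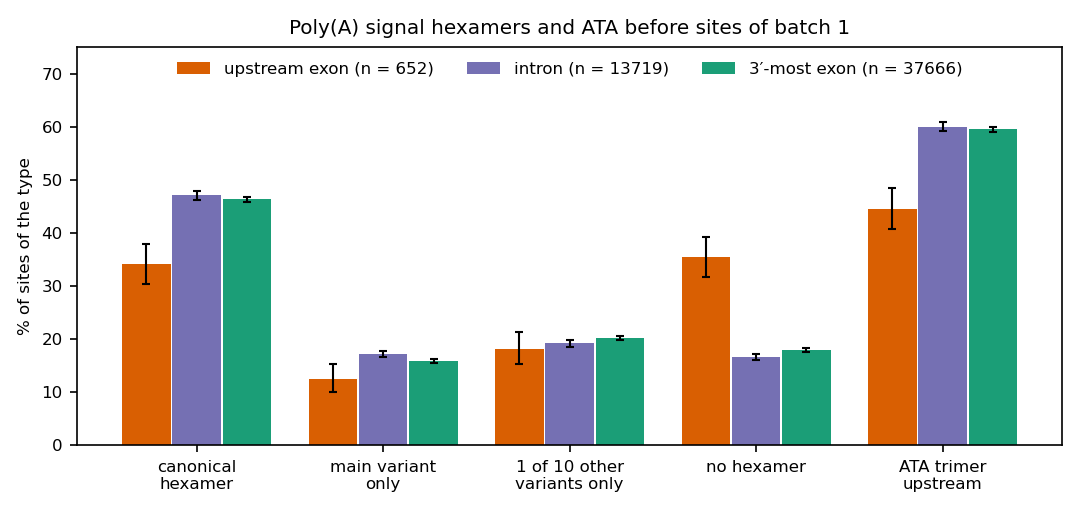
Percentage of PASs of batch 1 (y axis) that have each feature (x axis): AATAAA, its main variant alone, 1 of 10 other variants alone or no hexamer in the 40 nt before the site, and ATA between 100 and 41 nt before it. Bars are types of site and error bars are exact 95% intervals. Upstream exon sites stand at 34.0% for AATAAA and 35.4% for no hexamer, where intronic sites stand at 47.1% and 16.6% and 3′-most exon sites at 46.3% and 17.8%.

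The most-read sites were those of genes whose RNA ends there in most libraries. COL18A1, which encodes a basement membrane collagen, had 1515 reads in siCtrl, 1193 after Star-PAP KD, 2094 in siPAPα and 1031 in the library labelled siPAPγ, all the sense reads listed for it in batch 1. THOC2, a subunit of the THO complex of mRNA export, had 1050, 1087, 3524 and 2546 reads in the same order, 2900 in the double KD, and 715 and 478 in siCtrl and siStar-PAP of batch 2. NOP56, a core protein of box C/D snoRNPs, had 671, 1189, 2202 and 958 reads in batch 1, 1465 in the double KD, and 1015 and 976 in batch 2. These counts are not scaled to depth and show no direction of change by themselves. In the same order the libraries held 8057201, 11120874, 16191098 and 8674435 sense reads in batch 1. The double KD held 10888366, and batch 2 held 2749165 and 2347192. The THOC2 and NOP56 sites were the only sense PASs listed for their genes, so that their share was 100% in every library and could not move.

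Other highly read sites held most of their gene. At STK24, a serine/threonine kinase, the share was 85.2% in siCtrl, 85.5% after Star-PAP KD, 84.4% in siPAPα, 75.6% in the library labelled siPAPγ and 81.8% in the double KD, and 92.7% and 95.7% in siCtrl and siStar-PAP of batch 2. INTS10, an Integrator subunit, stood at 77.9%, 76.8%, 58.5% and 84.8% in batch 1, 59.7% in the double KD, and 91.2% and 89.8% in batch 2. The shares in siPAPα and the double KD were the lowest of these, without reaching the 2-fold change asked of a call. POMT2 (protein O-mannosyltransferase) stayed between 91.5 and 98.9%, LPHN2 (an adhesion receptor) between 91.0 and 99.4%, and SLC25A26 (a mitochondrial carrier) between 95.2 and 100% in batch 1 and the double KD table but at 64.9% and 72.0% in batch 2. AKAP13, a kinase anchoring protein, ranged from 74.7 to 84.7% in batch 1 and stood at 18.4% and 6.12% in batch 2.

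As a class, upstream exon PASs took 0.246% of the sense reads in siCtrl of batch 1 (0.243 to 0.25%), 0.188% in siStar-PAP (0.186 to 0.191%), 0.2% in siPAPα (0.198 to 0.203%) and 0.224% in the library labelled siPAPγ (0.221 to 0.227%). The double KD had 0.214% (0.211 to 0.216%) against 0.254% in siCtrl as listed in its table. In batch 2 the shares were 0.339% in siCtrl (0.332 to 0.346%) and 0.266% in siStar-PAP (0.26 to 0.273%). Every KD library was below the siCtrl of its table, at 76.4% of siCtrl in siStar-PAP of batch 1, 78.5% in that of batch 2, 81.4% in siPAPα, 91.0% in the library labelled siPAPγ and 84.1% in the double KD. All but that of batch 2 share 1 siCtrl library. The 10 sites with most reads over all libraries of a table held 45.3 to 59.8% of each library's reads of the class. When each gene was given equal weight siStar-PAP of batch 1 stood at 105% of siCtrl.

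Sites in 5′ UTRs were lower in every KD library. They took 0.0213% of sense reads in siCtrl of batch 1 (0.0203 to 0.0224%), 0.0142% in siStar-PAP, 0.00895% in siPAPα and 0.0131% in the library labelled siPAPγ. The double KD had 0.0115% against 0.0218%, and siStar-PAP of batch 2 had 0.0229% against 0.0350%. Sites in coding sequence differed less evenly. They took 0.0326% in siCtrl of batch 1 (0.0314 to 0.0339%), 0.0288% in siStar-PAP, 0.0255% in siPAPα and 0.0331% in the library labelled siPAPγ, and 0.0201% in the double KD against 0.0356%. In batch 2 the coding sites stood at 0.0264% (0.0246 to 0.0284%) in siCtrl and 0.0255% (0.0235 to 0.0276%) in siStar-PAP, with intervals that overlap.

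**Figure D2:**
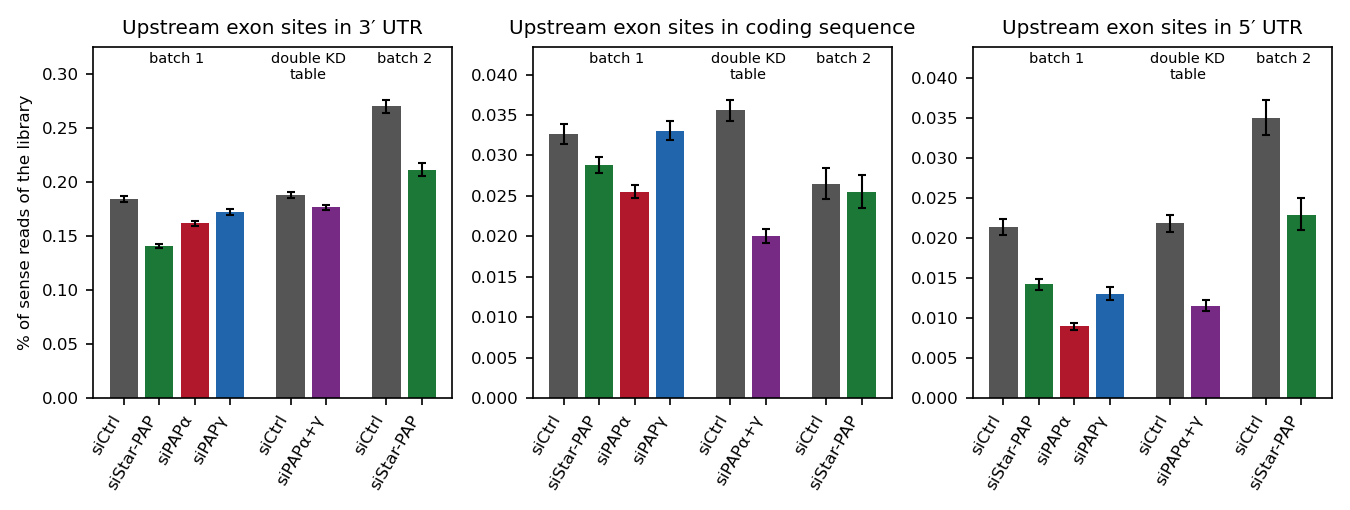
Reads at upstream exon PASs as a percentage of the library's sense reads (y axis, own scale in each panel, from 0) for each library (x axis, grouped by table), with sites split by GENCODE annotation. Error bars are exact 95% intervals for counting error, with 1 library per bar. In 5′ UTRs all 5 KD bars are below the siCtrl of their table, from 0.00895 to 0.0229%, while in coding sequence the library labelled siPAPγ reaches 0.0331% against 0.0326%.

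Choice of site within a gene was then compared. The share of a site among the sense reads of its gene was tested for each KD against the siCtrl of its table by a two-sided Fisher's exact test with Benjamini-Hochberg adjustment over all sense PASs tested, and a site was called when the adjusted p was below 0.05 and its share had changed by more than 2-fold. A site needed 20 reads over both libraries and a gene 2 sense PASs and 50 reads in each, so that few upstream exon PASs could be tested. Of 652 in batch 1, 34 were the only sense PAS of their gene, and with siStar-PAP 387 more lay in genes with too few reads and 118 more had too few reads themselves, which left 113. The numbers tested were 124 with siPAPα, 109 with the library labelled siPAPγ, 112 of 566 with the double KD and 44 of 409 with siStar-PAP of batch 2. The filter asks for reads in either library, so that a site with few siCtrl reads passed only by being high after KD.

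Calls ran in both directions after Star-PAP KD, in proportions that depended on the rule, and mostly downward after KD of PAPα. In siStar-PAP of batch 1, 16 upstream exon PASs had a higher share and 6 a lower one, 22 of 113, where 23.2% of all sites tested were called. With siPAPα, 14 were higher and 33 lower, 47 of 124, against 27.5% of all sites. With the library labelled siPAPγ, 5 were higher and 13 lower, 18 of 109, against 19% of all sites. In the double KD, 9 were higher and 26 lower, 35 of 112, against 26.3%, and in siStar-PAP of batch 2, 1 was higher and 5 lower, 6 of 44, against 7.52%. Split by direction, 11.7% of all sites were higher and 11.5% lower in siStar-PAP of batch 1, 13.2% higher and 14.4% lower in siPAPα, 9.1% higher and 9.9% lower in the library labelled siPAPγ, 11.5% higher and 14.9% lower in the double KD, and 3.75% higher and 3.77% lower in siStar-PAP of batch 2. In siStar-PAP of batch 1 the excess of rises depended on the 2-fold rule, since Fisher's test alone called 25 higher and 27 lower, the test with a change of at least 10 percentage points 18 and 20, and the level of the site (RPM) in place of its share 14 and 28. Of the 16 called higher there, 9 had fewer than the 20 reads of the filter in siCtrl, and all 6 called lower had fewer than 20 after KD. Higher calls with under 20 siCtrl reads were 10 of 14 in siPAPα and 4 of 5 in the library labelled siPAPγ. They were 6 of 9 in the double KD and 1 of 1 in siStar-PAP of batch 2. Lower calls with under 20 reads after KD were 17 of 33, 8 of 13, 17 of 26 and 4 of 5 in the same order. Among intronic PASs tested, 13.5% were higher and 27.8% lower in siPAPα, and 10.5% and 28.85% in the double KD. They were 10.7% and 20.9% in the library labelled siPAPγ. In siStar-PAP they were 22% and 16.8% in batch 1, and 10.05% and 6.53% in batch 2. The lean to lower calls in siPAPα and the double KD was thus not particular to upstream exon PASs. The 4 comparisons of batch 1 and the double KD share their siCtrl library and are not independent of each other.

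Median changes were small in siStar-PAP and lower in siPAPα and the double KD. On the log2 scale, the ratio of the share after KD to that in siCtrl, with 0.5 read added, had a median of 0.01 over upstream exon PASs in siStar-PAP of batch 1, −0.18 in siPAPα, −0.07 in the library labelled siPAPγ, −0.26 in the double KD and −0.05 in siStar-PAP of batch 2. Over sites with at least 50 reads the medians were −0.12 in siPAPα (85 sites) and −0.12 in the double KD (72 sites). Medians over all sites tested were between 0.00 and 0.01 in size. Intronic PASs had medians of 0.10, −0.28, −0.16, −0.24 and 0.04 in the same order, so that upstream exon sites lay between intronic and 3′-most exon sites in siPAPα and in the library labelled siPAPγ. In siPAPα the 45 coding sites tested had a median of −0.81 (7 higher, 17 lower), the 16 in 5′ UTRs −0.24 (0 higher, 5 lower) and the 59 in 3′ UTRs −0.07 (7 higher, 11 lower). In the double KD the medians were −0.51 over 36 coding sites (1 higher, 11 lower), −0.35 over 14 in 5′ UTRs and −0.10 over 58 in 3′ UTRs. In the library labelled siPAPγ they were −0.02 over 34 coding sites (3 higher, 6 lower), −0.24 over 15 in 5′ UTRs and −0.06 over 56 in 3′ UTRs. After Star-PAP KD they were 0.11, 0.14 and 0.00 in batch 1 and −0.01, −0.13 and −0.05 in batch 2, where 7 coding, 12 5′ UTR and 24 3′ UTR sites were tested.

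**Figure D3:**
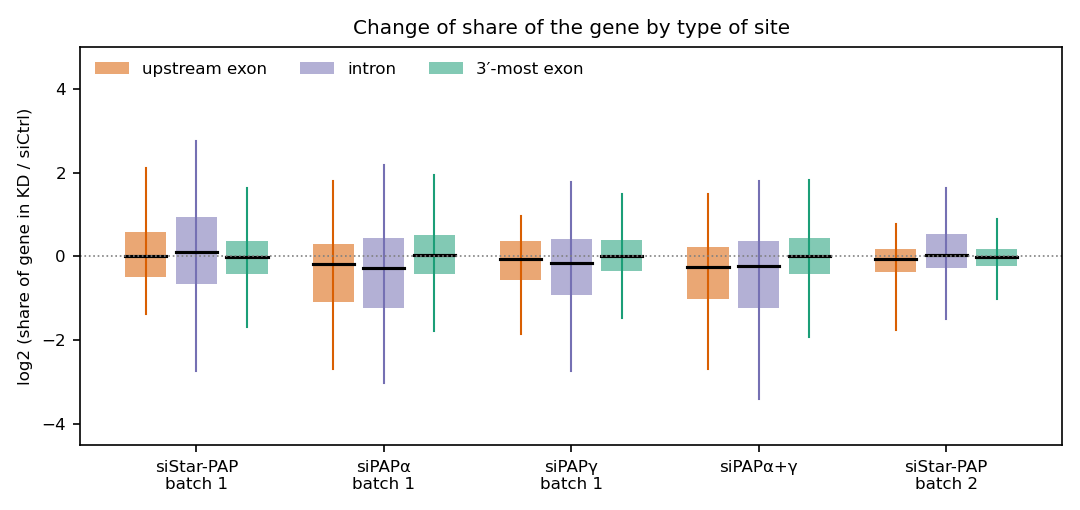
Log2 ratio of the share of the gene in KD to that in siCtrl (y axis) for each comparison (x axis) and type of site. Black lines are medians, boxes run from the 25th to the 75th percentile and thin lines from the 5th to the 95th, over the sites tested. Medians of upstream exon sites are −0.18 in siPAPα and −0.26 in the double KD, and those of 3′-most exon sites are 0.04 and 0.02.

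The largest falls in percentage points among called sites after KD of PAPα or PAPγ come next. A fall in points cannot exceed the share in siCtrl, so that this ranking picks sites well used in siCtrl. WDR33, the CPSF subunit that contacts the AAUAAA hexamer, had 573 of 1308 reads (43.8%, 41.1 to 46.5%) at its upstream exon PAS in siCtrl, 584 of 2120 (27.5%) in siStar-PAP, 108 of 2224 (4.86%) in siPAPα and 186 of 1467 (12.7%) in the library labelled siPAPγ. In its own table the double KD had 90 of 1652 (5.45%) against 573 of 1349 (42.5%). The fall passed in siPAPα (log2 ratio −3.17, Fisher's exact test adjusted p = 2.4e-174), in the library labelled siPAPγ (−1.79, adjusted p = 5.8e-75) and in the double KD (−2.96, adjusted p = 4.0e-136), whereas siStar-PAP stayed within 2-fold. The main PAS of the 3′-most exon of WDR33 was higher in the same libraries, at 41.0 RPM in siCtrl (330 reads), 84.0 in siStar-PAP (934), 60 in siPAPα (972) and 87.0 in the library labelled siPAPγ (755), and at 84.3 RPM in the double KD (918) against 41.4. The upstream site was a minor one in batch 2, with 12 of 150 reads (8%) in siCtrl and 7 of 138 (5.07%) in siStar-PAP, and was not tested for lack of reads.

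A steep fall without a call, named after its values were seen, was that of CKLF-CMTM1, a readthrough gene, whose site is also listed in the 3′-most exon of another gene. It had 246 of 275 reads (89.5%) in siCtrl, 56 of 90 (62.2%) in siStar-PAP, 111 of 236 (47.0%) in siPAPα, 145 of 188 (77.1%) in the library labelled siPAPγ and 86 of 140 (61.4%) in the double KD. The fall in siPAPα, by 42.4 points, was the largest there in points but stayed within 2-fold (adjusted p = 7.2e-25, Fisher's exact test).

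Falls were also called at sites in coding sequence. C12orf35, whose site is also an annotated transcript end, had 33 of 58 reads (56.9%) in siCtrl, 0 of 19 in siStar-PAP, 19 of 98 (19.4%) in siPAPα, 15 of 60 (25%) in the library labelled siPAPγ and 6 of 51 (11.8%) in the double KD, with falls that passed in the last 3 (adjusted p = 1.3e-05, 0.0024 and 4.0e-06 by Fisher's exact test). In batch 2 it had 14 of 31 reads (45.2%) in siCtrl and 5 of 19 (26.3%) in siStar-PAP, too few to test. CENPI, a centromere protein, had 36 of 102 reads (35.3%) in siCtrl, 0 of 54 in siStar-PAP, 14 of 132 (10.6%) in siPAPα and 10 of 90 (11.1%) in the library labelled siPAPγ, all called (adjusted p = 2.7e-07, 3.5e-05 and 3.9e-04 by Fisher's exact test). NOL7, a nucleolar protein, had 101 of 364 reads (27.7%) in siCtrl, 18 of 255 (7.06%) in siStar-PAP, 70 of 712 (9.83%) in siPAPα, 15 of 239 (6.28%) in the library labelled siPAPγ and 27 of 302 (8.94%) in the double KD, each called. All 3 genes were thus lower than siCtrl in every KD library in which their site was listed. These comparisons share the same siCtrl library, except that of C12orf35 in batch 2, which has its own siCtrl.

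Further falls named by the same rule were at coding sites too. WDSUB1 had 21 of 50 reads (42.0%) in siCtrl, 4 of 131 (3.05%) in siPAPα and 8 of 85 (9.41%) in the double KD. EPHA7, an ephrin receptor, had 61 of 168 (36.3%) in siCtrl and 16 of 191 (8.38%) in the library labelled siPAPγ. HERC4, a ubiquitin ligase, had 44 of 111 (39.6%) in siCtrl and 8 of 67 (11.9%) in siStar-PAP of batch 1 (log2 ratio −1.67, Fisher's exact test adjusted p = 2.9e-04), but 48 of 83 (57.8%) in the library labelled siPAPγ. In batch 2 the HERC4 site had 8 of 39 reads (20.5%) in siCtrl and 3 of 34 (8.82%) in siStar-PAP, the same direction as in batch 1 but below the read limit of the test.

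Rises were fewer after KD of PAPα, and several took place among neighbouring sites of 1 gene. The largest in points in siPAPα, the library labelled siPAPγ and the double KD fell short of a 2-fold change, and is named after its values were seen. It was at PFKP, a phosphofructokinase of glycolysis, at the annotated end of a transcript, with 267 of 583 reads (45.8%) in siCtrl, 373 of 444 (84.0%) in siStar-PAP, 764 of 841 (90.8%) in siPAPα and 447 of 542 (82.5%) in the library labelled siPAPγ. The double KD had 517 of 638 (81.0%) against 267 of 619 (43.1%), and batch 2 had 13 of 27 (48.1%) in siCtrl and 21 of 24 (87.5%) in siStar-PAP, too few to test. In the 4 tested libraries the rise passed Fisher's exact test (adjusted p between 1.6e-77 in siPAPα and 9.9e-36 in siStar-PAP) but not the 2-fold change.

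Among called sites, PARG, the enzyme that degrades poly(ADP-ribose), had 24 of 161 reads (14.9%) at its distal upstream exon PAS in siCtrl, 47 of 130 (36.2%) in siStar-PAP, 153 of 288 (53.1%) in siPAPα, 39 of 139 (28.1%) in the library labelled siPAPγ and 91 of 206 (44.2%) in the double KD. The rise passed in siStar-PAP (adjusted p = 1.5e-04), siPAPα (3.2e-15) and the double KD (8.2e-09, all by Fisher's exact test). The neighbouring PARG site, also of this class, had a lower share than in siCtrl, where it had 125 of 161 reads (77.6%). It had 71 of 130 (54.6%) in siStar-PAP, 134 of 288 (46.5%) in siPAPα and 91 of 139 (65.5%) in the library labelled siPAPγ. In the double KD it had 113 of 206 (54.9%), and it was called in none of these. In batch 2 the distal PARG site moved the other way, with 12 of 25 reads (48.0%) in siCtrl and 11 of 37 (29.7%) in siStar-PAP, on too few reads for the test.

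In REEP3, a protein that shapes the endoplasmic reticulum, every listed PAS was in an upstream exon. Its distal PAS had 41 of 293 reads (14.0%) in siCtrl, 200 of 568 (35.2%) in siStar-PAP, 138 of 443 (31.2%) in siPAPα, 61 of 276 (22.1%) in the library labelled siPAPγ and 113 of 223 (50.7%) in the double KD, called in siStar-PAP (adjusted p = 1.6e-10), siPAPα (3.7e-07) and the double KD (2.8e-18, Fisher's exact test). A PAS in the middle of the group, the one printed above, held 38.6%, 26.8%, 23.0%, 22.5% and 9.42% in the same libraries and was called in the double KD (adjusted p = 1.1e-13, Fisher's exact test). The most proximal PAS held 38.9%, 26.6%, 37.9%, 46.4% and 35.9% and was called in none. Batch 2 had the same directions as batch 1 at the first 2 of these sites, with 16 of 65 reads (24.6%) in siCtrl and 42 of 98 (42.9%) in siStar-PAP at the distal PAS, and 31 of 65 (47.7%) and 21 of 98 (21.4%) at the middle one, which was called there (adjusted p = 0.0054, Fisher's exact test). At the most proximal PAS the batches differed in direction, with a share lower by 12.3 points in siStar-PAP of batch 1 and 17 of 65 (26.2%) against 33 of 98 (33.7%) in batch 2.

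CABLES2, which encodes a partner of cyclin-dependent kinases, had 2 of 234 reads (0.855%) in siCtrl, 45 of 108 (41.7%) in siStar-PAP, 60 of 219 (27.4%) in siPAPα, 56 of 163 (34.4%) in the library labelled siPAPγ and 45 of 322 (14.0%) in the double KD, called in all 4. Its intronic PAS, the most-read one in siCtrl, had 208 of 234 reads there, 47 of 108 in siStar-PAP and 66 of 219 in siPAPα. It had 72 of 163 in the library labelled siPAPγ and 236 of 322 in the double KD. Both the upstream exon reads and the gene total moved, and batch 2 had 1 read at the site in each library.

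CYB5D2, which encodes a haem-binding protein, gave the largest rise in siStar-PAP of batch 1. Its 5′ UTR site held 60 of 270 reads (22.2%) in siCtrl and 143 of 214 (66.8%) in siStar-PAP (Fisher's exact test adjusted p = 1.4e-21), against 22.0% in siPAPα, 21.3% in the library labelled siPAPγ and 31.0% in the double KD. The same site held 8 of 250 reads (3.20%) in siCtrl and 1 of 107 (0.935%) in siStar-PAP of batch 2. A second 5′ UTR site of CYB5D2, further downstream, held 49 of 250 reads (19.6%) and 6 of 107 (5.61%) in batch 2, a fall that was called (adjusted p = 0.0059, Fisher's exact test). The batches therefore pointed in opposite directions at the 5′ end of CYB5D2, and they also differ in protocol.

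Other rises rested on sites with few or no siCtrl reads. GLA (α-galactosidase A) had 20 of 65 reads (30.8%) in siStar-PAP of batch 1 and 0 reads in siCtrl, siPAPα and the library labelled siPAPγ, on gene totals of 79, 110 and 64, and the site was not listed in the other tables. ASPM, a spindle protein, rose from 15 of 119 reads (12.6%) in siCtrl to 23 of 63 (36.5%) in siStar-PAP and 31 of 117 (26.5%) in the library labelled siPAPγ, and had 6 of 25 (24%) and 8 of 22 (36.4%) in batch 2. PHACTR2, a phosphatase regulator, rose from 14 of 105 (13.3%) in siCtrl to 38 of 91 (41.8%) in the library labelled siPAPγ and 48 of 173 (27.7%) in siPAPα. RYBP, a Polycomb protein with 7 upstream exon PASs, rose at its named site from 11 of 66 (16.7%) to 64 of 158 (40.5%) in siPAPα and 34 of 87 (39.1%) in the double KD.

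**Figure D4:**
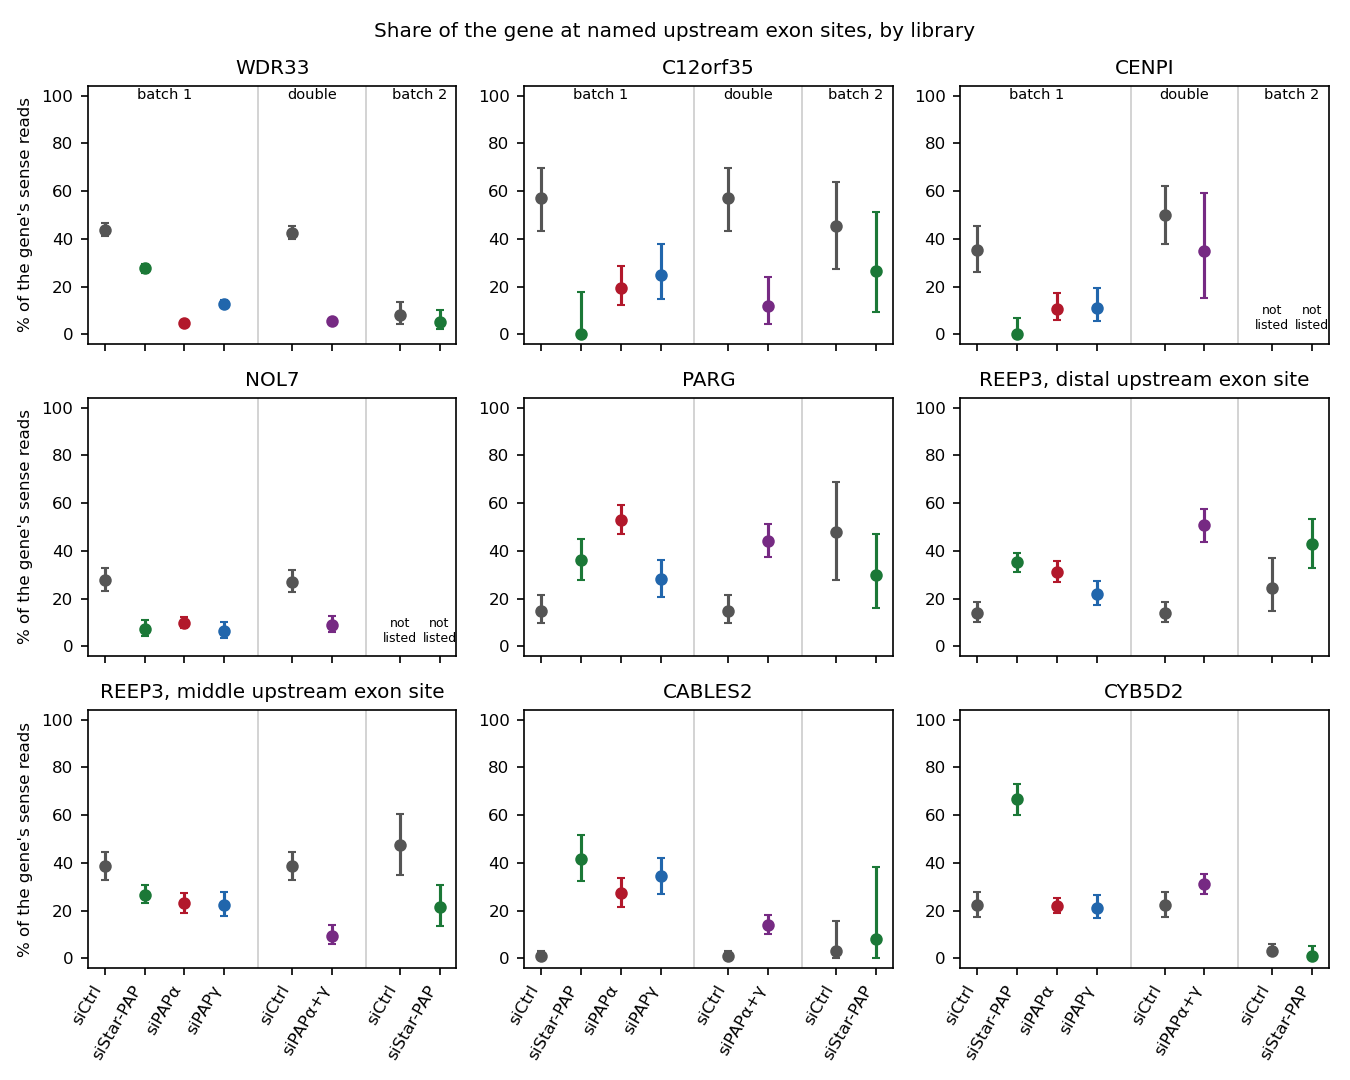
Share of the gene's sense reads (y axis, %) at 9 upstream exon PASs in each library (x axis, grouped by table), as points with exact 95% intervals for counting error and 1 library per point. WDR33 falls from 43.8% to 4.86% in siPAPα, the distal PAS of REEP3 is higher in siStar-PAP than in siCtrl in both batches, and CYB5D2 rises to 66.8% in siStar-PAP of batch 1.

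**Figure D5:**
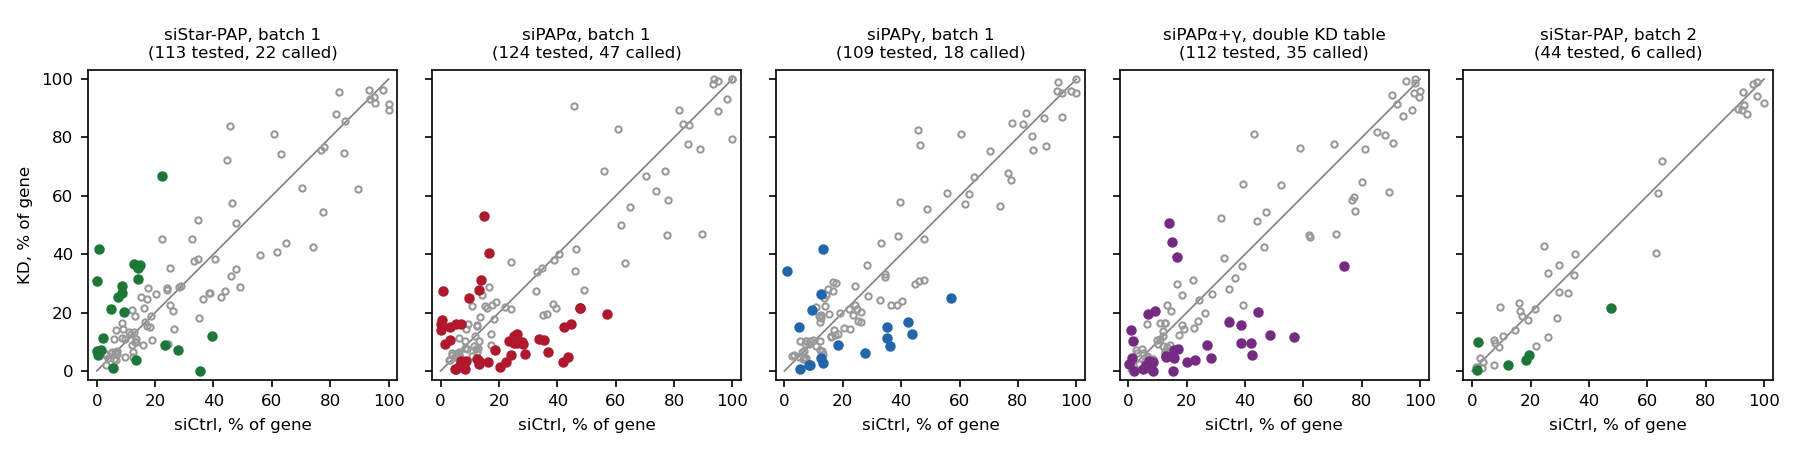
Share of the gene in siCtrl (x axis, %) against the share in KD (y axis, %) for each upstream exon PAS tested, 1 panel per comparison. Filled points were called and open points were not, and the line marks equal shares. In siPAPα and the double KD most filled points lie below the line (33 of 47 and 26 of 35), and in siStar-PAP of batch 1 most lie above it (16 of 22).

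Genes of the cleavage and polyadenylation machinery were looked at as a group, because 2 of them were among the sites above. Of 22 with sense reads in batch 1, WDR33, RBBP6 and PCF11 had an upstream exon PAS, against 561 of 15467 genes in all. Since the group was picked after those sites were seen, that count is no test of it. RBBP6, a RING-domain protein that joins the 3′ processing complex, had 71 of 96 reads (74.0%) at a 5′ UTR site in siCtrl, 58 of 137 (42.3%) in siStar-PAP, 189 of 306 (61.8%) in siPAPα, 57 of 101 (56.4%) in the library labelled siPAPγ and 62 of 172 (36.0%) in the double KD, which alone passed (log2 ratio −1.03, Fisher's exact test adjusted p = 1.9e-08). In batch 2 it held 244 of 254 reads (96.1%) in siCtrl and 58 of 59 (98.3%) in siStar-PAP. PCF11, a termination factor, had 0 reads in siCtrl and in the library labelled siPAPγ, 2 in siStar-PAP and 12 of 145 (8.28%) in siPAPα, too few at the site for a test.

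Other gene lists held almost no such site. Of 16 snoRNA host genes only NOP56 had one, and of 79 cytosolic ribosomal protein genes RPL17 and RPL27 had 1 each. None was listed in 14 SR protein genes, 25 hnRNP genes or 25 translation factor genes. RPL17 had 3 reads at its site in siPAPα and 0 in the other libraries of batch 1, and RPL27 had 1, 0, 7 and 0 reads in batch 1 and 1 in each library of batch 2. The RPL27 total rose from 139 siCtrl reads in batch 1 to 72734 in batch 2, so that shares of that gene cannot be set side by side across protocols.

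Star-PAP KD could be compared over 2 independent pairs of libraries. Of the upstream exon PASs, 189 were matched between the batches within 24 nt, 161 of them at the same position, and 22 passed the filters in both. Of these 22, 15 (68.2%) moved in the same direction in both batches, against 57.0% of the 3889 PASs of all types. REEP3, STK24, COBL and POMT2 each gave more than 1 of the 22, and shares within a gene are tied. The POMT2 sites, for example, moved by −2.94 and 2.94 points in batch 1. The 22 sites are thus not independent of each other. Of the 16 sites called higher in batch 1, 1 could be tested in batch 2, the distal REEP3 site, which moved the same way without a call, and none of the 6 called lower could. In the other direction, HOXB4, a homeobox factor, fell from 43 of 234 reads (18.4%) to 3 of 82 (3.66%) in batch 2 (adjusted p = 0.0072, Fisher's exact test), and had 143 of 774 (18.5%) and 78 of 412 (18.9%) in batch 1. FOXK2, a forkhead factor, gave the only rise called in batch 2, from 5 of 253 reads (1.98%) to 15 of 149 (10.1%), and was not listed in batch 1.

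With both batches in 1 model and batch as a block, the level of a site rather than its share was tested with edgeR's quasi-likelihood test, which leaves 1 residual degree of freedom. Of 110 upstream exon PASs tested, 1 rose and 0 fell at an adjusted p below 0.05, where 1.66% of all 15389 sites passed (0.845% higher and 0.812% lower). An unadjusted p below 0.05 was found at 16 of the 110 and at 1961 of the 15389. The site that rose was that of HSH2D, an SH2-domain adaptor, with 84 reads in siCtrl and 219 in siStar-PAP in batch 1 and 60 and 197 in batch 2 (log2 fold change 1.71, SE 0.42, edgeR adjusted p = 0.035). The distal REEP3 site rose from 41 to 200 and from 16 to 42 reads without passing (log2 fold change 2.03, SE 0.55, edgeR adjusted p = 0.059). The test of usage within genes called 0 of 73 upstream exon PASs and 0% of all 8933 sites with edgeR, and 0 of the 73 and 269 of the 8933 had an unadjusted p below 0.05. On simulated data with 200 sites changed 4-fold, that test recovered 29, so that it had little power here.

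The control libraries themselves differed between the batches at many upstream exon PASs. Of 68 matched sites with at least 50 siCtrl reads of the gene in both, 25 differed by no more than 5 percentage points, 9 of which were at 100% in both, and 18 by more than 20 points, with a median difference in size of 7.88 points. Of the 18, 12 were lower and 6 higher in batch 2. The pairs with the widest gaps, picked after their values were seen, were RNF145, at 82.9% in batch 1 and 0.792% in batch 2, and ZNF181, at 88.8% and 9.06%. Among those higher in batch 2, JOSD1 stood at 2.46% and 76.0%. Protocol and sequencing depth changed together between the batches and cannot be told apart. The labels do not say whether culture differed as well.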

How the data were processed

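The deposited tables give, per the labels and the study's methods, counts of supporting reads per PAS and gene, which the authors did not normalize. Reads had been mapped to hg19 with bowtie2 in local mode, kept if unique (mapping quality above 10) with at least 2 untemplated Ts, and clustered within 24 nt. The methods asked for over 5% of the gene in 1 sample, and the sites were used as listed. All 7 libraries were mapped to a group from their titles, and 0 columns were left out. The labels do not name the batch of the double KD. The methods describe no collapsing of reads on molecular identifiers. The library total used here is the sum of sense reads in a table, between 2347192 and 16191098, and upstream antisense sites were left out.

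Sites were annotated with the GRCh37 sequence and GENCODE v44 lifted to GRCh37, of which 0 listed sites fell outside the chromosomes. Shares were tested as described in the report, since the authors' own test of isoforms was not used here. Both batches of siStar-PAP were fitted with edgeR (glmQLFit with glmQLFTest and diffSpliceDGE, TMM factors, filterByExpr). Batch was the block because each batch has its own protocol and siCtrl, and deviations of the batch 1 libraries from their group means correlated at r = 0.887 over 13926 sites. On simulated data with 200 sites changed 3-fold, the Fisher step recovered 157 to 170 of 200 over the 5 comparisons, with 2 to 6 false calls, and the level step recovered 196 of 200 changed 4-fold with 16 false calls among 15456 sites. The simulation of the Fisher step drew independent reads. That of the fits over both batches added spread between libraries around 1 mean per site. It held no difference between the batches, unlike the data.

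Sites named in the text were the 10 with most siCtrl reads in batch 1, the 3 largest rises and the 3 largest falls in percentage points among called sites of each comparison, any called over both batches, and those in the gene lists. Members, lists and tests were chosen with earlier results of these data known. Alternatives covered the filters, the fold change, the test, merging within 50 nt, upstream antisense reads, normalization, the block, DESeq2 and each library left out. R 4.3.3, edgeR 4.0.16, DESeq2 1.42.0, Python 3.11.15, numpy 2.4.6, pandas 2.3.3, scipy 1.17.1, pysam 0.24.0 and matplotlib 3.10.9 were used.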

Additional observations from a re-analysis of the deposited data

Results flagged for a closer look

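HOXB4 differed between the batches of siStar-PAP. Its 5′ UTR site had a share of the gene 0.457 percentage points higher than siCtrl in batch 1 and 14.7 points lower in batch 2 (−14.7), where the fall was called. The difference between the batches was not tested, and the batches were made with different protocols.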

How the results depend on the processing

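Depth and the lack of replicates limited the calls. The share of all sense reads kept its direction under every alternative but 1. With each gene weighted equally, siStar-PAP of batch 1 turned from below to above siCtrl (105% of siCtrl), and the others stood at 88.0% (siPAPα), 95.9% (library labelled siPAPγ), 87.9% (double KD) and 96.1% (siStar-PAP of batch 2). Without the most-read site the values were 76.6%, 83.5% and 77.7% for siPAPα, the library labelled siPAPγ and the double KD, and with sites of at least 5 reads in every library the double KD stood at 86.9%. Without the 10 most-read sites, a setting chosen after seeing the data, the 5 comparisons stood at 71.1%, 63.4%, 79.0%, 68.6% and 87.2% in the order siStar-PAP of batch 1, siPAPα, the library labelled siPAPγ, the double KD and siStar-PAP of batch 2.

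Numbers of called sites depended on the rule. Under the other rules calls were counted over upstream exon sites only. These numbers therefore show how the count moves with the rule and nothing particular to the class. In the same order, Fisher's test alone called 52, 72, 43 and 63 in the first 4, no filter on reads 130, 145, 69 and 146, at least 50 site reads 10, 27, 9, 18 and 2 in all 5, and RPM in place of the share 42, 40, 55 and 17 in all but siPAPα. In siStar-PAP of batch 1, 16 were higher and 6 lower under the rule used, 25 and 27 by Fisher's test alone and 14 and 28 by RPM, so that the excess of higher calls there rested on the 2-fold change of share. A change of 1.5-fold called 37 in siStar-PAP of batch 1 and 30 in the library labelled siPAPγ, a change of at least 10 points with Fisher's test 38 in siStar-PAP of batch 1 (18 higher, 20 lower), and the fold change alone 11 in siStar-PAP of batch 2. The median was −0.12 in both siPAPα and the double KD with at least 50 site reads. In siPAPα and the double KD lower calls outnumbered higher ones under every setting run.

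Without the replicate block, edgeR called 0 upstream exon sites and 0 of all sites by level, with 64 of all at an unadjusted p below 0.05, against 1 and 255 with it, and leaving out any 1 library of that fit also gave 0 in both, with 73 to 1107 of all sites at an unadjusted p below 0.05 and the lone library of a group assumed to vary like the other group. RLE factors called 2 of 110 upstream exon sites (HSH2D and the distal REEP3 site), where 201 of all 15389 sites were higher and 164 lower. No filter on low counts called the same 2 of 189, with 179 higher and 179 lower of all 23511. DESeq2 called 1 of 35, with 138 higher and 96 lower of all 7101. The usage test without a filter called 4 of all sites and 0 upstream exon sites. Over the same 73 upstream exon sites, the median usage change was −0.09 with both batches, −0.02 in batch 1 alone and −0.03 in batch 2 alone. At the named sites, C12orf35 in the library labelled siPAPγ was no longer called with upstream antisense reads in the gene total (a fall of 16.2 points, −16.2), and no named site reversed when close sites were merged or antisense reads added.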
